A study of Mus musculus with 6 samples.

Results

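Pax5, Ebf1, Spi1, Csf1r, Cebpa and Tal1 are genes that direct or mark the B cell, myeloid and erythroid lineages, and their loci were examined here in T cells of the mouse thymus. The 6 genes were chosen by name. For each a fixed stretch of build mm9 was read: chromosome 4:44535001-44735000 for Pax5, chromosome 11:44420001-44840000 for Ebf1, chromosome 2:90915001-90965000 for Spi1, chromosome 18:61255001-61305000 for Csf1r, chromosome 7:35895001-35915000 for Cebpa and chromosome 4:114715001-114750000 for Tal1. These stretches cover 775.0 kb, or 0.0293% of the genome spanned by the reads, and hold 388 of its 1320937 windows of 2 kb. Mature CD4+ T cells and mature CD8+ T cells came from the thymus of C57BL/6 mice. No treatment or genetic change is labelled for either, and the sources used here give neither the number, age and sex of the animals nor how the cells were purified. Nuclei were digested with micrococcal nuclease, an enzyme that frees single nucleosomes, and those that carry H3K4me3 or H3K36me3 were pulled down with polyclonal antibodies raised in rabbits. Nuclease-cut DNA without antibody was sequenced as input. There are 6 libraries, 1 for each antibody or input and cell type, so no difference below has a replicate check. Intervals are exact 95% intervals that cover counting error only. In such bulk chromatin, a mark on few cells and a weak mark on all cells cannot be told apart.

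The genes belong to the programmes of blood lineages other than T cells. Pax5 and Ebf1 are transcription factors that specify and maintain B cells. Spi1 encodes PU.1, an ETS factor of myeloid and B cells that is also present in early thymocytes and is shut off at T cell commitment. Cebpa encodes C/EBP alpha, a factor of granulocyte and monocyte development, and Csf1r encodes the receptor for macrophage colony-stimulating factor. Tal1 encodes a basic helix-loop-helix factor of blood stem cells and erythroid cells, and its misplaced expression is a known cause of human T cell leukaemia. H3K4me3 marks promoters, including many silent promoters rich in CG dinucleotides, whereas H3K36me3 is laid down along genes that are being transcribed. A locus can therefore carry neither mark, H3K4me3 alone, or both.

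Because H3K4me3 is known to gather at CG-rich promoters, promoter sequences of the members are shown first, with each CG dinucleotide in capitals. They are the 250 bases before the annotated start, 5′ to 3′ on the gene's strand, as RefSeq gives them for build GRCm38.p6. The table matched 4 of the 6 members, with 6 promoters, and the promoter with most CG dinucleotides is printed for each gene. The reads are in mm9, so these promoters were not placed among them.
Cebpa (GRCm38.p6 chr7:35119043-35119292, plus strand): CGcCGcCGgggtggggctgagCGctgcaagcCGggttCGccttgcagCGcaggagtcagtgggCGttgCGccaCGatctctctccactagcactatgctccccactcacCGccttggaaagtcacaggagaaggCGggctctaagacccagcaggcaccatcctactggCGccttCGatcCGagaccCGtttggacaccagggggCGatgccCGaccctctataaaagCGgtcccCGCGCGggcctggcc
Pax5 (GRCm38.p6 chr4:44710695-44710944, minus strand): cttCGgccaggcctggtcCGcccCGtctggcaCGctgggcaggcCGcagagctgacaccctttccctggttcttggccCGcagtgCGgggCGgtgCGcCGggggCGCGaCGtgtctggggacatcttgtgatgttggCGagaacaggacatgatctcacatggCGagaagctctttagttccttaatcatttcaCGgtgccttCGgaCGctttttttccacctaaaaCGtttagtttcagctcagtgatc
Tal1 (GRCm38.p6 chr4:115057561-115057810, plus strand): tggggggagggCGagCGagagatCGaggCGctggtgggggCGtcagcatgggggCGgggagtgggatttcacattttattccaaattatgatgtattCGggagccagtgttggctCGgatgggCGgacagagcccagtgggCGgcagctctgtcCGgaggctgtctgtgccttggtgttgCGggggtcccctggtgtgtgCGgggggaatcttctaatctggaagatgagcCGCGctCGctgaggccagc
Ebf1 (GRCm38.p6 chr11:44619978-44620227, plus strand): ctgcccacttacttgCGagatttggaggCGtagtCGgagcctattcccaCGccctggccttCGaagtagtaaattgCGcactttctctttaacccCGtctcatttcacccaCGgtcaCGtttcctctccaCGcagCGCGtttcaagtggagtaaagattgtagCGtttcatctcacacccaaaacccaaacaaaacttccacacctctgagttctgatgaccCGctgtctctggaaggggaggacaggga

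The Cebpa promoter held 22 CG dinucleotides in 250 bases and 66.4% G plus C, and 85.2% of the 32851 promoters in the table held fewer. Pax5 had 19, more than 80.3% of promoters. The Tal1 promoter shown had 16 and that of Ebf1 14, above 74.6% and 70.6% of promoters. The other Tal1 promoter held 6 and the other Ebf1 promoter 9, while the median over the table was 6. Each printed promoter thus holds more CG dinucleotides than the median promoter of the table. Spi1 had no entry, and Csf1r was not looked up because promoters on chromosome 18 were left out.

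The first question was whether H3K4me3 was present at these loci. Short stretches passed the domain rule given below at Cebpa, Tal1 and Ebf1 in both cell types. Spi1 had an enriched window in both cell types but no domain under that rule, and Pax5 and Csf1r had neither. In CD4 the Tal1 signal was no stronger than that of Spi1, with 25 H3K4me3 reads in the highest Tal1 window and 37 in the highest Spi1 window. To be called enriched, a window of 2 kb needed 20 or more reads and a level, scaled to library size, 4 or more times that of the input from the same cell type. Inputs below 3 reads were raised to 3. Of the 388 windows, 6 were enriched in CD4 and 6 in CD8, or 1.55% in each, against 1.74% of all windows of the genome in CD4 and 1.59% in CD8. The share in these loci is near that of the genome. When an input library was treated as if it were an antibody library, 0 of the 388 windows passed. Input windows reached 20 reads in CD4 only at Pax5 (2) and Ebf1 (1), and in CD8 only at Ebf1 (2) and Tal1 (1). The minimum of 20 reads thus left little that could pass, and no conclusion is drawn from this. The enriched CD4 windows were 2 each at Ebf1 and Cebpa and 1 each at Spi1 and Tal1, and the enriched CD8 windows were 2 each at Cebpa and Tal1 and 1 each at Ebf1 and Spi1.

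**Figure D1:**
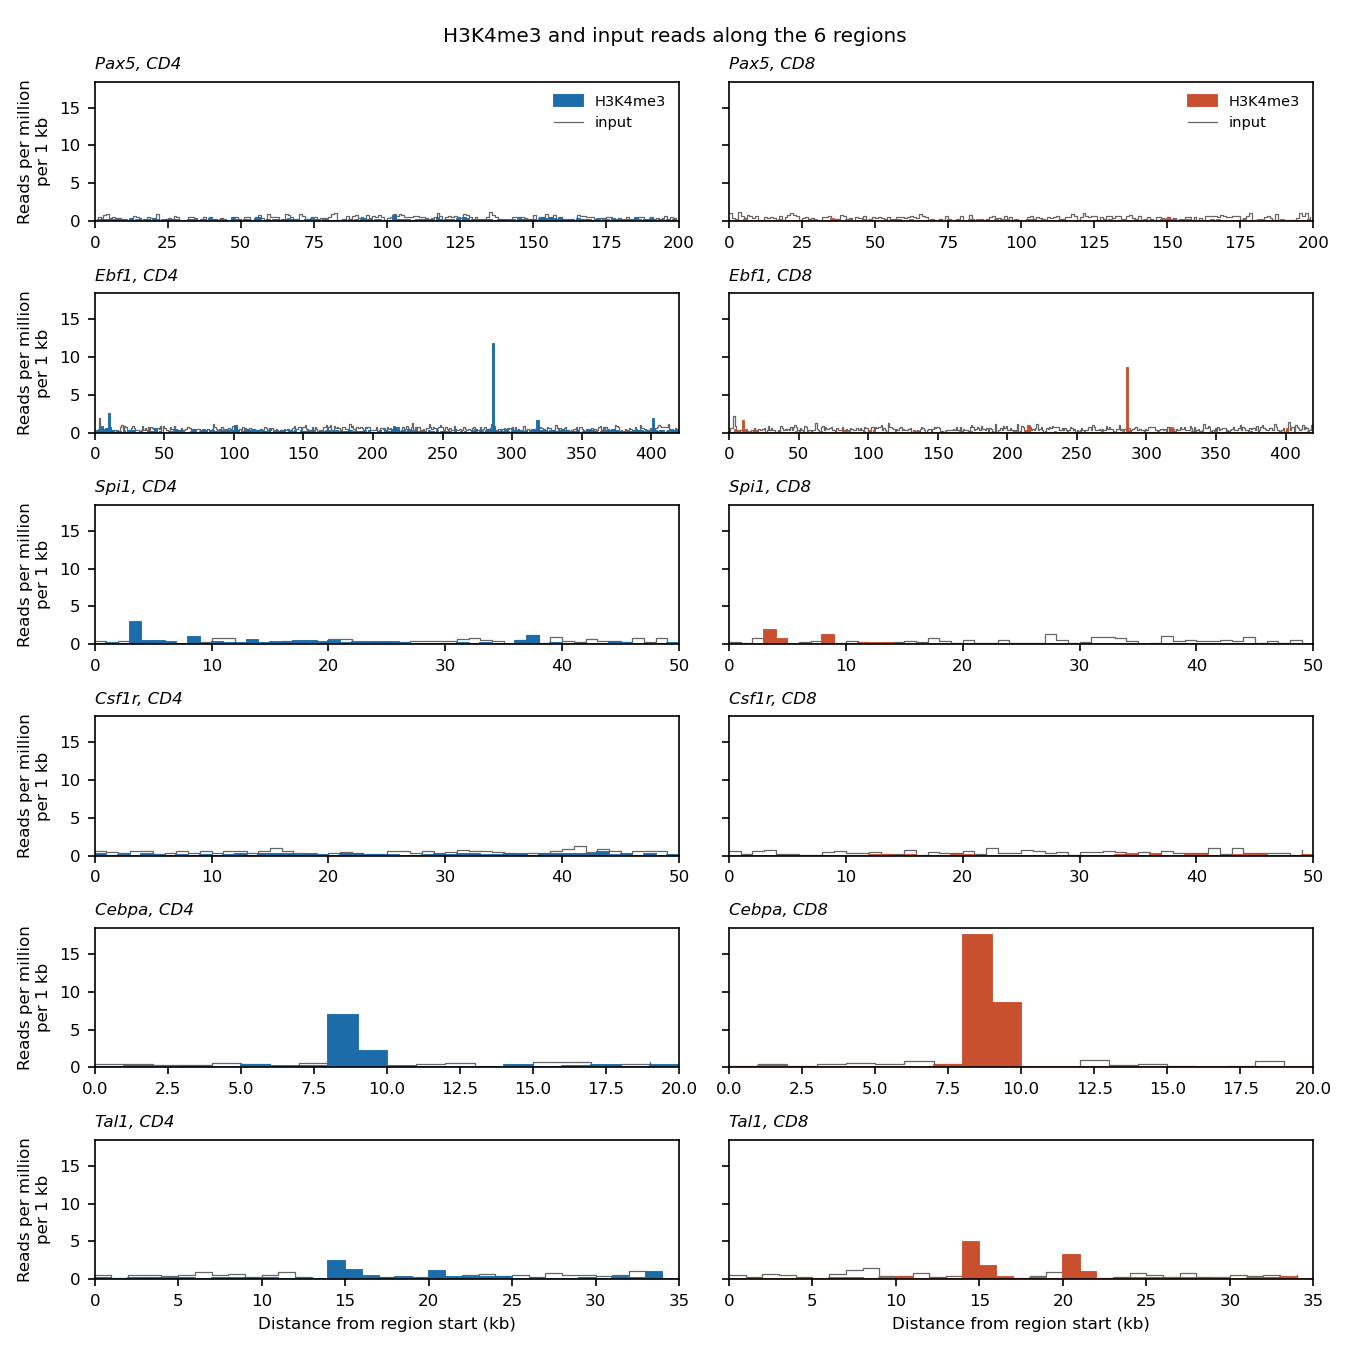
H3K4me3 (bars) and input (grey line) in reads scaled to library size (RPM) per 1 kb along the 6 regions, against the distance from the region start in kb, with CD4 on the left and CD8 on the right on a common vertical axis. No bar stands out at Pax5 or Csf1r, Cebpa carries the highest bar in CD8, and Ebf1 has a single tall bar in each cell type.

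Library depth and background set what could be seen. After chromosomes 1 to 19, X and Y were kept, the H3K4me3 libraries held 10728764 reads in CD4 and 12114294 in CD8, the H3K36me3 libraries 6730337 in CD4 and 6758121 in CD8, and the inputs 10171739 in CD4 and 9976535 in CD8. Distinct start positions made up 54.4% of the CD4 and 31.4% of the CD8 H3K4me3 reads, and at least 91.2% in the other libraries. In windows far from either mark, H3K4me3 stood at 19.2% of the input in CD4 and 1.20% in CD8, and H3K36me3 at 31.7% in CD4 and 32.5% in CD8. A level below the input is thus usual where a mark is absent, and the floor of the H3K4me3 library is higher in CD4. No mm9 gene annotation was used here, so the T cell and other marker genes were not checked, and where the promoters and gene ends lie within each region was not determined.

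Pax5, the factor that holds B cell identity, had no H3K4me3 domain in 200 kb. Its 100 windows of 2 kb held at most 7 H3K4me3 reads in CD4 and at most 4 in CD8, against up to 20 input reads in CD4 and 19 in CD8. A window with 7 CD4 reads, chromosome 4:44590001-44592000, had 1 H3K4me3 read in CD8, against 14 input reads in CD4 and 6 in CD8. In all, the region held 236 H3K4me3 reads in CD4 and 60 in CD8, against 912 input reads in CD4 and 843 in CD8. These are 0.245 times the input in CD4 (0.212 to 0.283) and 0.0586 times in CD8 (0.0443 to 0.0762). Among the 11833 stretches of 200 kb that tile the genome with enough input, 51.6% were lower in CD4 and 55.3% in CD8, so Pax5 lay near the middle. With 1 read kept per position the levels were 0.438 in CD4 and 0.168 in CD8, still below the input. With all reads kept, the Pax5 levels lay above those of windows far from either mark, 0.192 in CD4 and 0.0120 in CD8. Absence of the mark is therefore not shown.

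Ebf1, which acts with Pax5 in early B cells, had 1 H3K4me3 domain in 420 kb. A domain was built from neighbouring bins of 200 bp that each reached 4-fold over the input; gaps of 400 bp or less were bridged and 20 reads were required. The Ebf1 domain covered chromosome 11:44706201-44707000 in CD4, 800 bp with 126 reads, and chromosome 11:44706401-44707000 in CD8, 600 bp with 92 reads. Over the joined 800 bp there were 126 H3K4me3 reads against 4 input reads in CD4, and 103 against 0 in CD8. The 4 bins of 200 bp held 25, 54, 25 and 22 reads in CD4, and 11, 56, 13 and 23 in CD8. In both libraries the reads peaked in the same bin. The CD4 domain was 29.9-fold over input (11.4 to 111), and the CD8 domain, with 0 input reads, at least 25.3-fold when the input is set to a floor of 3 reads.

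A fainter Ebf1 site lay near the lower end of the region, at chromosome 11:44430401-44431200. It held 33 H3K4me3 reads in CD4 and 16 in CD8, with 1 input read in each. This site did not pass the domain rule, and was a domain in CD4 but not in CD8 when the input was averaged over 10 kb in place of the floor of 3 reads per bin. Of the 210 windows of the Ebf1 region, 35 held 0 H3K4me3 reads in CD4 and 174 held 0 in CD8. Leaving out the domain and 1 kb on each side, H3K4me3 stood at 23.3% of input in CD4 (21.1 to 25.6) and 3.84% in CD8 (3.08 to 4.72).

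Spi1, whose product PU.1 is lost as thymocytes commit to the T lineage, had a low H3K4me3 signal but no domain under this rule, and 1 domain in each cell type when the input was averaged over 10 kb or 1 read was kept per position. With pooled inputs it had 1 domain in CD4 and 0 in CD8. The window at chromosome 2:90918001-90920000 held 37 H3K4me3 reads against 4 input reads in CD4, an 8.77-fold level (3.15 to 33.9), and 32 against 4 in CD8, a 6.59-fold level (2.34 to 25.6). Most of these reads fell within 800 bp, chromosome 2:90918401-90919200, which held 31 in CD4 and 30 in CD8 with 1 input read in CD4 and 0 in CD8. The next window with 10 or more reads in both cell types, chromosome 2:90922001-90924000, held 11 in CD4 and 15 in CD8. Over its 50 kb, Spi1 had 148 H3K4me3 reads in CD4 and 65 in CD8. At 0.656 times the input in CD4 (0.528 to 0.812) and 0.265 times in CD8 (0.197 to 0.352), the region exceeded 80.4% of the 47104 stretches of 50 kb in CD4 and 79.7% in CD8. With 1 read kept per position the levels were 1.16 in CD4 (0.936 to 1.45) and 0.787 in CD8 (0.581 to 1.05). With the input averaged over 10 kb, the Spi1 domain covered chromosome 2:90918401-90918800 in CD4 and chromosome 2:90918601-90919200 in CD8, which overlap in part. In both libraries the reads of the site peaked in the same bin of 200 bp, with 17 in CD4 and 15 in CD8.

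Csf1r, the growth factor receptor of macrophages, had no H3K4me3 domain or enriched window. Its 25 windows held at most 6 H3K4me3 reads in CD4 and 4 in CD8, against up to 18 input reads in CD4 and 15 in CD8. The window with 6 CD4 reads, chromosome 18:61298001-61300000, had 3 in CD8. The region totalled 70 H3K4me3 reads in CD4 and 20 in CD8, or 0.249 times the input in CD4 (0.188 to 0.325) and 0.0713 times in CD8 (0.0428 to 0.113). It exceeded 63.4% of stretches of its length in CD4 and 74.0% in CD8. In CD8 the level was above that of windows far from either mark (0.0120), and in CD4 the interval included that level (0.192). Absence of the mark is therefore not shown. Pax5 and Csf1r were the 2 members without a window of 10 or more H3K4me3 reads in either cell type.

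Cebpa, the granulocyte and monocyte factor, had the highest H3K4me3 level over input of the 6 regions. The level was 1.35-fold in CD4 (1.02 to 1.79) and 3.95-fold in CD8 (3.03 to 5.21). It is an average over the whole region and so depends on region length, and Cebpa is the shortest region. Among 116177 stretches of its length, 90.46% were lower in CD4 and 92.75% in CD8, the highest such shares of the 6. With the CD4 and CD8 stretches joined, the Ebf1 domain held more reads than the Cebpa domain in CD4, 126 against 90. In CD8 it held fewer, 103 against 299. The Cebpa domain covered chromosome 7:35903201-35904200 in CD4, 1000 bp with 82 reads, and chromosome 7:35903201-35904400 in CD8, 1200 bp with 299 reads. Over the 6 bins of the longer stretch, CD4 had 30, 16, 12, 11, 13 and 8 reads and CD8 had 42, 73, 54, 37, 63 and 30. In these unscaled reads CD8 had more in each bin, and the gap was smallest in the first. The input held 3 reads in CD4 and 1 in CD8 over that stretch. With 1 read kept per position the region levels were 1.89 in CD4 (1.40 to 2.55) and 8.01 in CD8 (6.06 to 10.7). Outside the domain and 1 kb on each side, 26 H3K4me3 reads remained in CD4 and 4 in CD8.

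Tal1, the stem cell and erythroid factor, had 1 short domain in CD4 and 2 in CD8. The shared domain spanned chromosome 4:114729801-114730000 in CD4, 200 bp with 21 reads, and chromosome 4:114729801-114730200 in CD8, 400 bp with 51 reads. The further CD8 domain, chromosome 4:114735601-114736000, held 9 reads in CD4 and 32 in CD8. The input held 3 reads in CD4 and 0 in CD8 over the shared domain, and 2 in CD4 and 0 in CD8 over the further one. The CD4 domain holds 1 read more than the minimum of 20 and was lost at 8-fold in place of 4-fold and also when repeated reads were collapsed to 1 per position. In CD8, 1 of the 2 domains was left at 8-fold. The whole region had 101 H3K4me3 reads in CD4 and 154 in CD8, 0.580 times the input in CD4 (0.448 to 0.748) and 0.788 times in CD8 (0.627 to 0.989). With 1 read kept per position these became 0.998 in CD4 (0.767 to 1.29) and 2.02 in CD8 (1.58 to 2.56). The side of the input on which Tal1 lies in CD8 thus depends on whether repeated reads are kept in the whole library. In CD8 the region had 127 distinct starts among its 154 reads, while the library total used for scaling fell from 12114294 to 3809767.

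**Figure D2:**
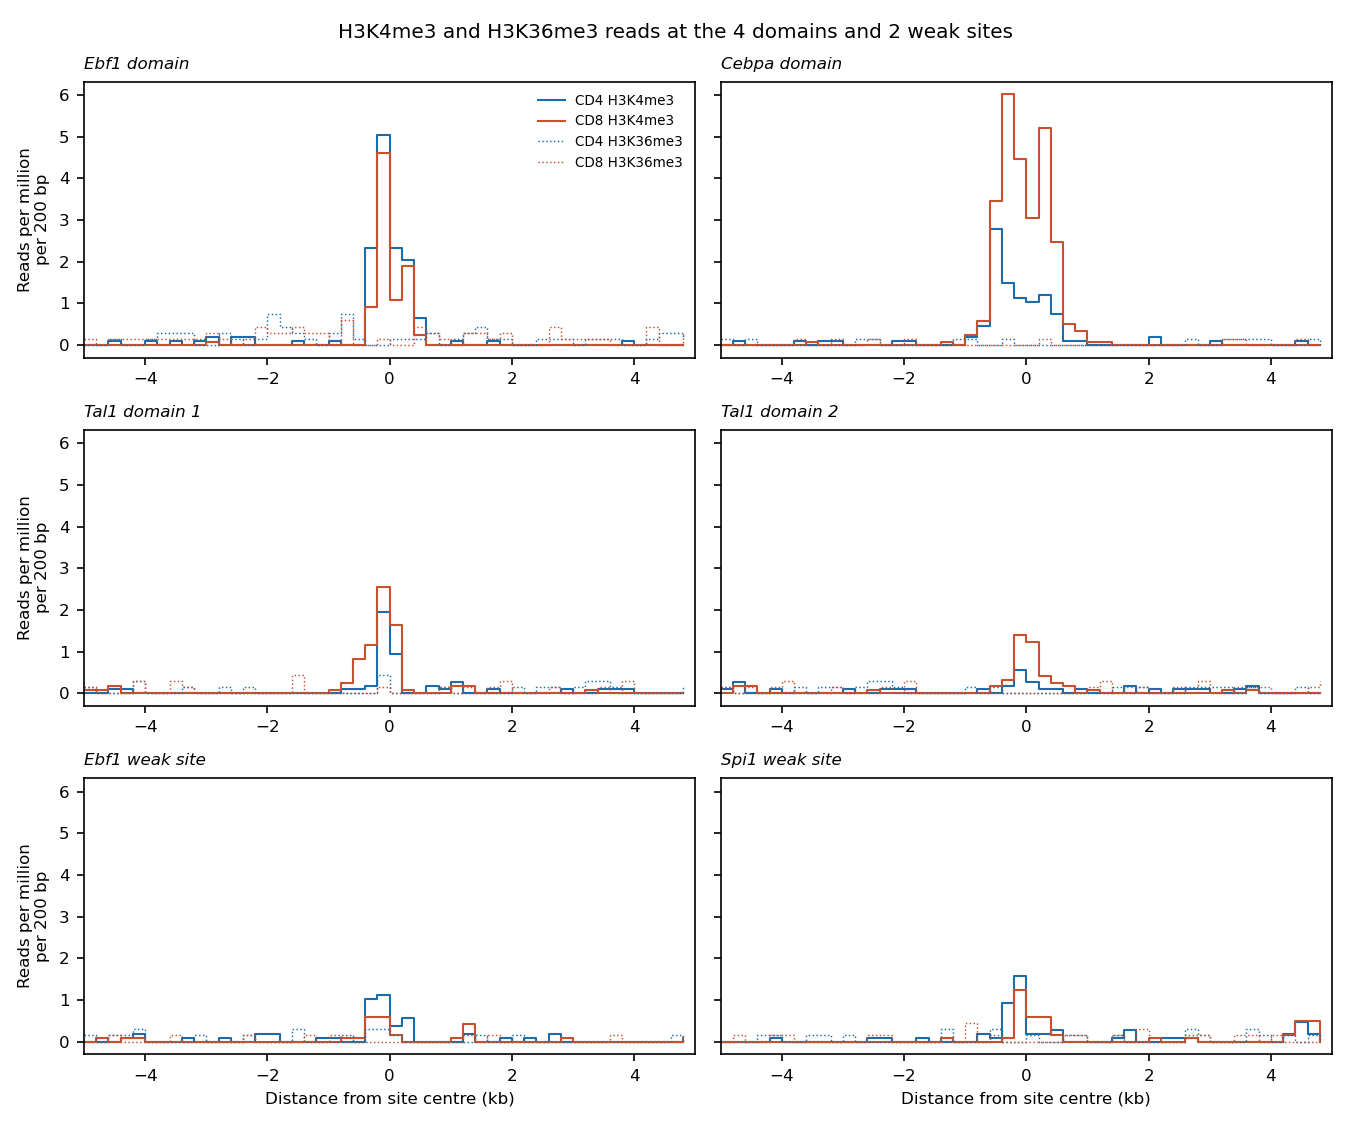
H3K4me3 (solid) and H3K36me3 (dotted) in RPM per 200 bp bin, within 5 kb of the centre of the 4 joined domains and the 2 weak sites, with CD4 in blue and CD8 in red on a common vertical axis. On this scale of total reads CD8 is above CD4 across the Cebpa domain, and the Ebf1 domain is similar in height in both. H3K36me3 is low beside the H3K4me3 peaks on this common axis, although within 5 kb of the Ebf1 domain it exceeded the input.

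The median domain of the genome was 1000 bp with 343 reads in CD4 (15608 domains) and 1000 bp with 591 reads in CD8 (14871 domains). Cebpa had more reads than 22.0% of CD4 domains and 35.9% of CD8 domains, and was wider than 43.8% of CD4 domains and 59.9% of CD8 domains. Ebf1 had more reads than 29.2% of CD4 and 19.8% of CD8 domains. The shared Tal1 domain had more reads than 0.775% of CD4 and 11.6% of CD8 domains, and the CD8 domain beside it more than 5.83%. Each member domain thus held fewer reads than the median domain of its library.

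**Figure D3:**
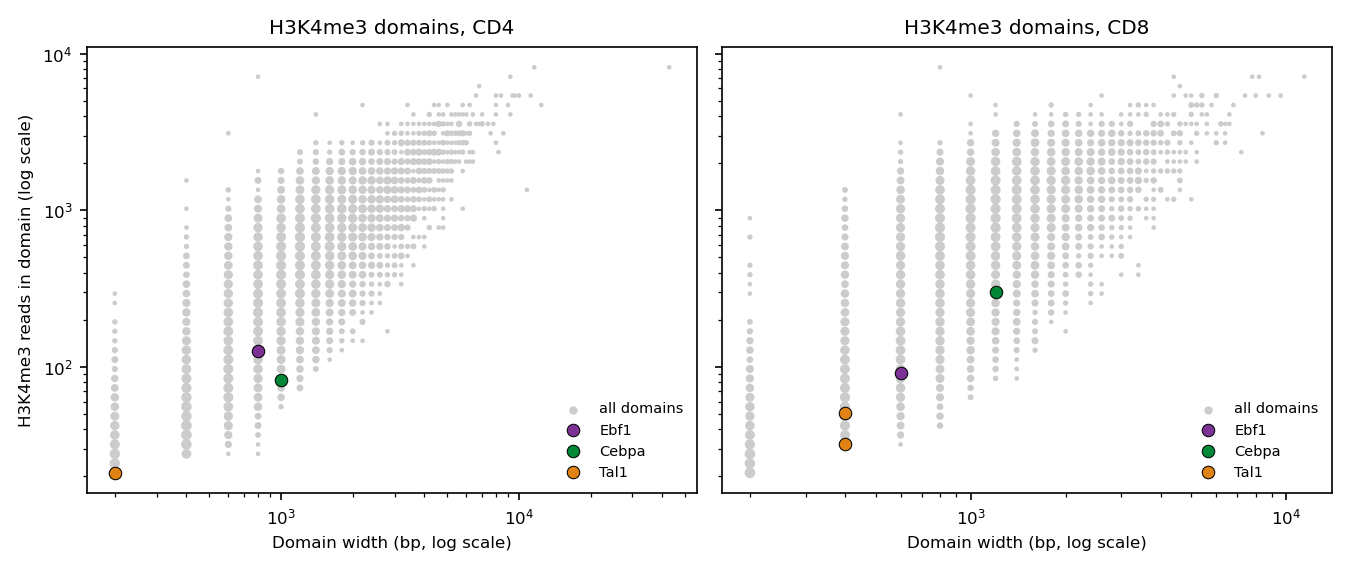
Width (bp) and H3K4me3 reads of all domains (grey, larger points for more domains) and of the member domains (coloured) on log axes, with CD4 on the left and CD8 on the right. The member domains lie below the median read number of their library, and Tal1 lies near the smallest domains.

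The second question was whether the marks differed between CD4 and CD8 cells. At the 4 joined domains the ratio of CD4 to CD8 H3K4me3 reads was set relative to the median ratio of the 2 kb windows enriched in each of them. A difference was called at 2-fold with an exact interval, of 0.1% error, that excluded 1. Cebpa was called lower in CD4, with 90 reads in CD4 and 299 in CD8, a ratio of 0.450 (0.351 to 0.571). No other member domain was called. Of the 16542 joined domains of the genome, 5.45% were called lower in CD4 (higher in CD8) and 20.8% higher in CD4. Cebpa kept its call with 1 read per position, with total-read scaling and with background subtracted, at log2 ratios of -1.42, -1.56 and -1.16 beside -1.15. It had 97 distinct start positions among 125 CD4 reads over the whole region and 210 among 326 CD8 reads. The CD8 library had the larger share of repeated reads over the genome as well.

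At the Ebf1 domain CD4 had 126 reads and CD8 103, a ratio of 1.83 (1.40 to 2.39) that stayed below the 2-fold threshold and was 0.31 on the log2 scale with 1 read per position (interval -0.15 to 0.76), against 0.87. The shared Tal1 domain had 31 reads in CD4 and 51 in CD8 over the joined 400 bp, a ratio of 0.908 (0.562 to 1.45). Its neighbour had 9 in CD4 and 32 in CD8, a ratio of 0.420 (0.176 to 0.901), which the stricter interval did not separate from 1 at this depth. Scaling to total reads in place of the median lowers every such H3K4me3 log2 ratio by 0.40, and Cebpa was the only one of the 4 called under either. Among the 7 windows of 2 kb enriched in either cell type, 0 were called higher in CD4, against 25.0% of 24614 such windows in the genome. The window called higher in CD8, against 5.08% of the genome's, was chromosome 7:35904001-35906000 at Cebpa, with 25 H3K4me3 reads in CD4 and 105 in CD8.

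The third question was whether H3K36me3, the mark of transcribed gene bodies, accompanied H3K4me3. Beside the member domains it was at or below the input level in most cases. Within 10 kb on each side of the Cebpa domain there were 26 H3K36me3 reads in CD4 and 18 in CD8 against 84 input reads in CD4 and 76 in CD8, or 0.468 times the input in CD4 (0.289 to 0.734) and 0.350 times in CD8 (0.197 to 0.590). Among the 16542 joined domains, 4.87% had a lower level in CD4 and 3.16% in CD8. The Cebpa domain was therefore among those with least H3K36me3 beside them. The medians over all joined domains were 1.49 in CD4 and 1.46 in CD8, and 31.6% lay below the input in CD4 and 33.5% in CD8.

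The shared Tal1 domain had 0.846 times the input in CD4 (0.579 to 1.22) and 0.698 times in CD8 (0.474 to 1.01). The second had 0.782 in CD4 (0.531 to 1.14) and 0.911 in CD8 (0.627 to 1.31). The sides of these Tal1 domains overlap and share reads. At Ebf1 the level was 0.950 in CD4 (0.687 to 1.30) and 1.24 in CD8 (0.912 to 1.69), with 66 H3K36me3 reads in CD4 and 80 in CD8. Within 5 kb it was 1.66 in CD4 (1.12 to 2.47) and 1.75 in CD8 (1.17 to 2.63), so H3K36me3 exceeded the input at close range. That stretch was not enriched under the rule for windows of 10 kb, which asks for 20 reads and at least 2 times the input. The window there, chromosome 11:44700001-44710000, held 52 H3K36me3 reads in CD4 and 54 in CD8, against 53 input reads in CD4 and 48 in CD8, 1.48-fold in CD4 and 1.66-fold in CD8. At the Cebpa and Tal1 domains the levels within 5 kb were 0.588 to 0.875 in CD4 and 0.351 to 0.849 in CD8.

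Over the whole regions, H3K36me3 was above the input at Csf1r. Csf1r had 454 H3K36me3 reads in CD4 and 375 in CD8 against 267 input reads in CD4 and 231 in CD8, 2.57-fold in CD4 (2.20 to 3.0) and 2.40-fold in CD8 (2.03 to 2.84). Tal1 was near the input, at 0.953 in CD4 (0.738 to 1.22) and 1.05 in CD8 (0.823 to 1.35). Spi1 had 0.558 times the input in CD4 and 0.504 in CD8, and Cebpa 0.464 in CD4 and 0.391 in CD8. Ebf1 had 0.358 in CD4 and 0.364 in CD8, and Pax5 0.315 in CD4 and 0.189 in CD8. In windows of 10 kb, 2 of 78 were enriched in CD4 and the same 2 in CD8, 2.56% in each, against 10.3% of the genome's 264195 windows in CD4 and 10.2% in CD8. They were 1 window at Csf1r and 1 at Tal1. Neither was called different between the cell types, and 2.08% of the 30253 windows tested in the genome were called higher in CD4 and 0.84% higher in CD8.

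**Figure D4:**
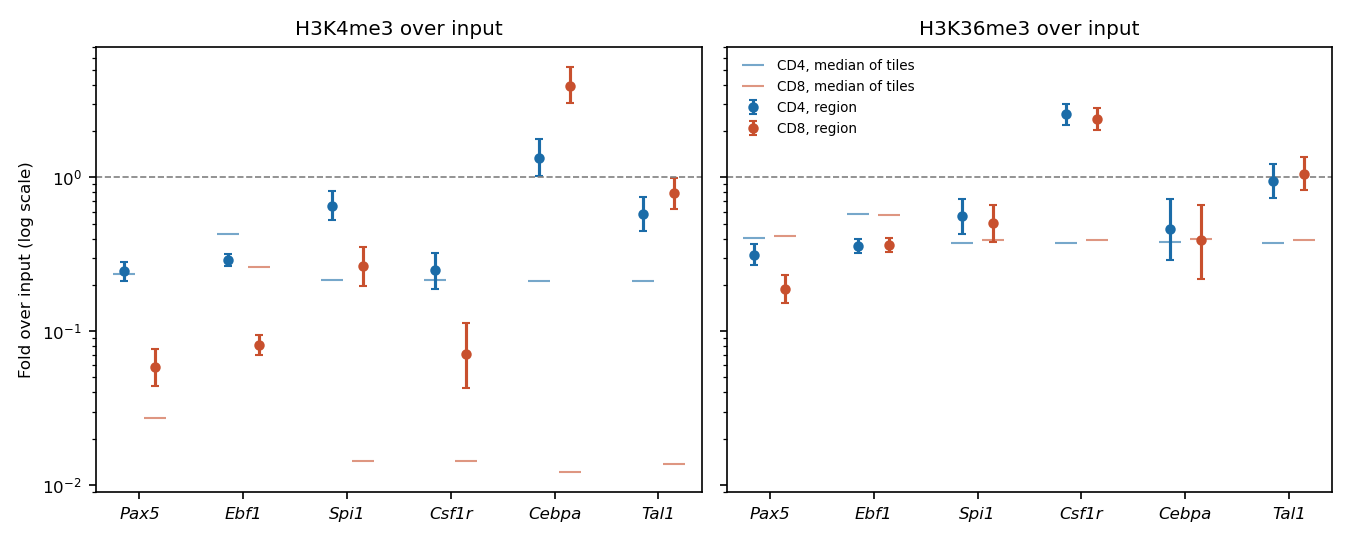
Fold over input of H3K4me3 (left) and H3K36me3 (right) in each region on a log axis, with exact 95% intervals, in CD4 (blue) and CD8 (red), and the median of genome stretches of the same length (short bars). H3K4me3 is above the input (dashed line) at Cebpa, and H3K36me3 at Csf1r in both cell types.

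At Csf1r and Tal1 the enriched H3K36me3 lay at 1 edge of each region. At Csf1r the lower 4 windows of 10 kb held 7 to 25 H3K36me3 reads in CD4 and 4 to 17 in CD8, while chromosome 18:61290001-61300000 held 273 in CD4 and 217 in CD8, 6.55-fold over input in CD4 (4.96 to 8.76) and 6.16-fold in CD8 (4.53 to 8.51). In steps of 5 kb the level was 0.634 in CD4 and 0.738 in CD8 at 30 kb from the region start. It was 7.63 in CD4 and 5.02 in CD8 in the next step, and between 3.59 and 10.3 in CD4 and between 5.02 and 8.58 in CD8 from there to 80 kb, past the region's end at 50 kb. The step that began at 80 kb had 0.529 in CD4 and 0.908 in CD8. The nearest H3K4me3 domain on that side, chromosome 18:61336001-61337400, lay 31.0 kb past the end with 688 reads in CD4 and 1333 in CD8. The nearest on the other side was 245.8 kb away in CD4 and 246.4 kb in CD8. The H3K36me3 in the Csf1r region was thus part of a block that ran on to a strong H3K4me3 domain outside it. In RefSeq (GRCm38.p6) the coding genes next to Csf1r are Pdgfrb below and Hmgxb3 above. Which gene the block covers in mm9 was not determined here.

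At Tal1 the enriched window, chromosome 4:114710001-114720000, straddled the lower end of the region and held 73 H3K36me3 reads in CD4 and 103 in CD8, 2.45-fold over input in CD4 (1.67 to 3.64) and 3.54-fold in CD8 (2.45 to 5.17). From 40 kb below the region to its start, the steps of 5 kb ranged from 2.85 to 3.69 in CD4 and from 3.22 to 7.38 in CD8. In the first step inside they were 1.37 in CD4 and 2.46 in CD8. The block began beside an H3K4me3 domain at chromosome 4:114672001-114673200, 41.8 kb below the region, with 778 reads in CD4 and 1033 in CD8. The coding neighbours of Tal1 in RefSeq are Stil below and Pdzk1ip1 above. Around the Tal1 domains themselves, the windows at chromosome 4:114720001-114730000 and chromosome 4:114730001-114740000 had 0.919 and 0.820 times the input in CD4 and 0.622 and 0.868 times in CD8. The Tal1 domains therefore lay beyond the block, where H3K36me3 was not above the input beyond counting error. It was still above the level of windows far from either mark, 0.317 in CD4 and 0.325 in CD8, so absence of the mark is not shown. The whole Tal1 region, with the edge of the block, exceeded 76.5% of stretches of its length in CD4 and 79.0% in CD8.

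**Figure D5:**
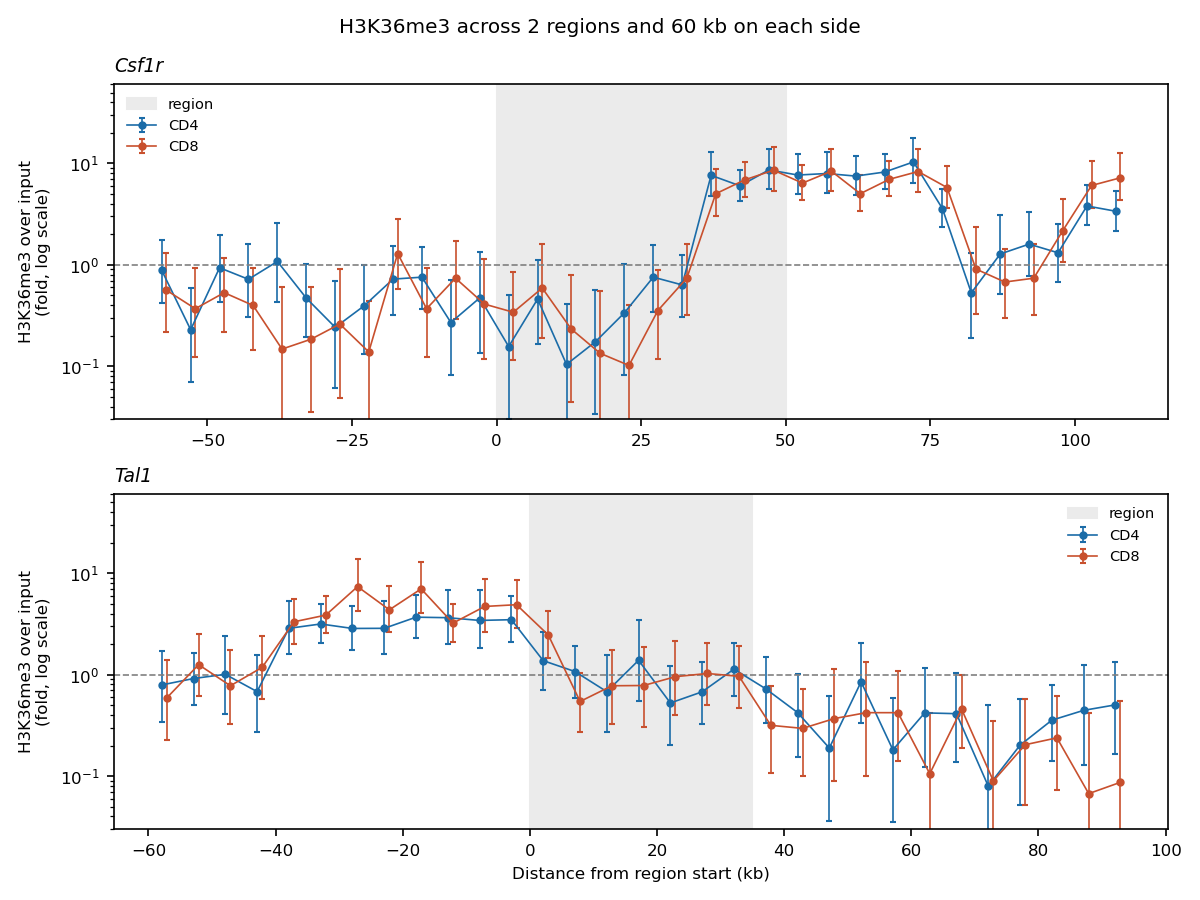
H3K36me3 over input (fold, log axis) in steps of 5 kb across the Csf1r and Tal1 regions (shaded) and 60 kb on each side, with exact 95% intervals, CD4 in blue and CD8 in red; the dashed line is the input level. The block at Csf1r enters from the higher coordinates. That at Tal1 falls off at the region's lower edge, where the first step inside is still above the input in CD8.

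H3K36me3 was called different between CD4 and CD8 in 0 of the 6 regions. The share called among genome stretches of these lengths was not computed, so no conclusion is drawn from this count. The Csf1r ratio of CD4 to CD8 was 1.25 (1.09 to 1.43) and that of Tal1 0.932 (0.708 to 1.23). Ebf1 had 493 H3K36me3 reads in CD4 and 496 in CD8, a ratio of 1.02 (0.903 to 1.16), the narrowest interval of the 6. Spi1 had 79 in CD4 and 69 in CD8, a ratio of 1.18 (0.844 to 1.65), and Cebpa 27 in CD4 and 18 in CD8, a ratio of 1.55 (0.821 to 2.98). For Cebpa the interval reached past 2-fold at this depth. Pax5 had 190 H3K36me3 reads in CD4 and 108 in CD8, a ratio of 1.81 (1.42 to 2.32) that stayed under 2-fold. The inputs there differed by 1.06 (0.965 to 1.17). Among the 11833 stretches of 200 kb, 99.6% had a lower ratio, with a median of 0.975. Neither library reached the input at Pax5. Averaged over the whole region, CD4, at 0.315 times the input, was at the level of windows far from either mark (0.317). CD8, at 0.189, was below that level (0.325), with 0.972% of stretches lower.

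H3K36me3 reads at Pax5 occurred along the whole region and rose toward its higher coordinates. In 4 stretches of 50 kb from low to high coordinates there were 28, 33, 53 and 76 H3K36me3 reads in CD4, and 13, 21, 35 and 39 in CD8. CD4 was the higher library in each stretch, but in the middle stretches the intervals of the levels over input overlapped. The lower of these had 0.201 in CD4 (0.135 to 0.290) and 0.170 in CD8 (0.103 to 0.268). The upper had 0.301 in CD4 (0.220 to 0.406) and 0.230 in CD8 (0.156 to 0.329). The lowest stretch had 0.228 times the input in CD4 and 0.0842 in CD8. The highest had 0.542 in CD4 (0.411 to 0.707) and 0.277 in CD8 (0.191 to 0.391). The window with most reads in CD4, chromosome 4:44710001-44720000, held 24 in CD4 and 8 in CD8, against 32 input reads in CD4 and 35 in CD8, and was not enriched in either. Pax5 thus had no enriched window of either mark in either cell type.

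Outside the regions, the nearest H3K4me3 domain to Pax5 began 33.8 kb above, with 1334 reads in CD4 and 1991 in CD8, and the nearest to Spi1 ended 4.0 kb below, with 231 in CD4 and 398 in CD8. On the far sides no domain occurred for 220.8 kb in CD4 and 220.6 kb in CD8 below Pax5, for 825.2 kb above Ebf1 and for 660.0 kb above Tal1. Domains nearest to Cebpa lay 52.8 kb below in CD4 (310 reads) and 53.0 kb below in CD8 (525 reads), and 104.2 kb above with 1168 reads in CD4 and 1881 in CD8. The Cebpa domain, with 82 reads in CD4 and 299 in CD8, was weaker than these neighbours in both libraries.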

How the data were processed

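The deposited files give, for each aligned read of 33 bp, its start and end coordinate. The build is mm9, per the submitters' processing notes, the labels name no aligner, and whether repeated reads had been removed is unknown; a start offset of 1 bp was not checked. Reads on chromosomes 1 to 19, X and Y (98.3% to 99.8% of each library) were counted by midpoint and scaled to library size. The members and lists were chosen with earlier results of these data known. All 6 members are named, with each of their domains, or their window with most H3K4me3 reads where there is none. The lists of other regulators and of cell type markers were not analysed here, because no mm9 annotation was used.

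With 1 library per group no p-value was computed. Intervals are exact Clopper-Pearson intervals conditional on the sum of both counts, and cover counting error only, since the reads carry no molecular identifiers and can be copies of 1 molecule. A fold against 0 reads used a floor of 3 reads per library. Region levels were set beside genome tiles of the same length with at least 50% of the median input. The background level came from 892185 windows that had no window of over 9 reads of a mark within 10 kb. The rules were tested on simulated data. The alternatives were 1 read per position, pooled or local input, other folds, gaps, minimum reads, grids, flanks and scalings, background subtraction and a thinned deeper library. The scripts ran in Python 3.11.15 with SciPy 1.17.1, NumPy 2.4.6, pandas 2.3.3 and matplotlib 3.10.9.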

Additional observations from a re-analysis of the deposited data

Results flagged for a closer look

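At Tal1, H3K36me3 over the region was below the input in CD4, at 0.953 times, and above it in CD8, at 1.05 times. Within 10 kb of the Ebf1 domain, H3K36me3 was likewise below the input in CD4, at 0.950 times, and above it in CD8, at 1.24 times. Each group is 1 library, so the libraries of both cell types lie on opposite sides of the input, and all 4 intervals include 1. Set directly against each other, the Tal1 region's H3K36me3 reads had a CD4 to CD8 ratio of 0.932 (0.708 to 1.23), which was not called different. For the stretch beside the Ebf1 domain the difference between the cell types was not tested.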

How the results depend on the processing

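Of 126 values under alternatives to 48 reported values, 103 counted as unchanged and 23 moved. Unchanged meant within the counting interval or, for counts, within 1.5 times. For the Cebpa domain ratio, the only called ratio among them, it meant that the call was kept. With total-read scaling that log2 ratio was -1.56, outside its interval of -1.51 to -0.81, with the call kept. The CD4 to CD8 difference called at the Cebpa domain kept its direction and its call under the 3 alternatives run for it, and the call of the 2 kb window at Cebpa was not recomputed under alternatives. With 1 read per position, H3K4me3 over input was higher in every region: in CD4 it was 0.438 at Pax5, 0.488 at Ebf1, 1.16 at Spi1, 0.449 at Csf1r, 1.89 at Cebpa and 0.998 at Tal1, and in CD8 it was 0.168 at Pax5, 0.210 at Ebf1, 0.787 at Spi1, 0.222 at Csf1r, 8.01 at Cebpa and 2.02 at Tal1. Tal1 in CD8 then lay above the input, and Spi1 in CD4 did too with an interval that includes 1. The H3K4me3 totals used for scaling fell in this setting, from 10728764 to 5838017 in CD4 and from 12114294 to 3809767 in CD8, which raises every level. The log2 ratio of CD4 to CD8 at the Ebf1 domain was 0.31 with 1 read per position and 0.47 with total-read scaling, against 0.87. The count of CD4 domains was 5 with pooled inputs and 5 with local input, against 3. At 50 or more reads, 2 H3K4me3 windows were enriched in CD4, against 6. At 3-fold, 1 H3K36me3 window was enriched in CD4, against 2. H3K36me3 beside the Ebf1 domain was 1.66 in CD4 and 1.75 in CD8 within 5 kb, and 0.847 in CD8 within 20 kb. Beside the shared Tal1 domain it was 1.26 in CD4 and 1.47 in CD8 within 20 kb, a stretch that reaches the H3K36me3 block below the region. The causes of the other shifts were not tested.

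Pax5 and Csf1r had 0 domains, Cebpa 1 and Ebf1 at least 1 in each cell type under each domain setting run. The Tal1 domain in CD4 was lost with 1 read per position and at 8-fold. In CD8, Tal1 had 1 domain at 8-fold, against 2 under the main rule. Spi1 gained 1 domain in each cell type with 1 read per position and with local input, and 1 in CD4 with pooled inputs. No paired analysis was possible because each group holds 1 library, so leaving out a replicate was not an option. The depth limits sites of few reads, such as the Tal1 and Spi1 sites.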
